A study of Mus musculus with 17 samples.

Results

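The 8 genes Tyrp1, Dct, Tyr, Pmel, Mlana, Slc45a2, Oca2 and Mitf belong to the pigment programme of melanocytes and were looked up among the 78298 Ensembl genes counted in mouse lumbar dorsal root ganglia (DRG, which house the cell bodies of sensory neurons and their glia). All 8 symbols matched 1 identifier each. The set was chosen because Tyrp1 is low in libraries labelled knockout, and the question is whether the other pigment genes share that pattern. The values that chose it are therefore those of Tyrp1 between the genotypes, which are given as a description with no test. Of the 8 genes, 4 passed the filter on low counts and entered the fit of 23972 genes (Tyrp1, Pmel, Oca2 and Mitf), and 4 did not (Dct, Tyr, Mlana and Slc45a2).

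Bulk RNA sequencing was done on ganglia of levels L4 to L6 in 17 libraries. After CCI (chronic constriction injury, a nerve injury model of neuropathic pain) there were 3 libraries labelled KO for Kcnk1, which encodes the potassium channel Twik1, and 5 wild-type libraries. After a sham operation there were 4 libraries labelled KO and 5 wild-type libraries. Every library carries the label day 30 in its batch field. The labels leave out the strain, coat colour, sex and age of the mice, the deleted part of Kcnk1, the cells in which it was deleted, and whether each library is 1 animal or a pool, so a p-value reflects the spread among these libraries, which may be technical. Libraries held 52523183 to 73584232 gene counts. Levels are CPM, counts scaled to the effective library size, and 3 reads, the upper limit that a count of 0 allows, correspond to at most 0.0576 CPM in any library. Such limits cover counting error only, since reads without molecular identifiers are not independent molecules.

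Facts about the libraries bear on what follows. Kcnk1 transcripts ranged from 75.1 to 114.5 CPM in the 7 knockout-labelled libraries and from 94.3 to 139.3 CPM in the 10 wild-type libraries, a log2 fold change over both treatments of −0.47 ± 0.09 (SE, edgeR adjusted p = 0.00746). With the deleted part unknown, these reads cannot check the label, and the groups are named by it. Sensory neuron markers were abundant in all libraries, with a summed level of 10 markers from 10710 to 14209 CPM. Sham knockout-labelled libraries 1 and 2 stood apart, with 140.6 and 103.3 CPM of the injury-induced transcription factor Atf3, against 9.42 to 16.8 CPM in the 5 sham wild-type libraries and 11.1 and 13.2 CPM in sham knockout-labelled libraries 3 and 4. The tables' names also hold a number of unstated meaning, with 1 value for all sham libraries and another for either CCI group. Whatever it stands for cannot be told apart from the groups in the injury comparisons and in the genotype comparison after CCI. It also enters the genotype comparison over both treatments and the difference of the injury effect between genotype labels, since both use the CCI groups.

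Melanocytes are pigment cells that arise from the neural crest, in part through Schwann cell precursors that migrate along nerves. The transcription factor Mitf switches on their pigment genes. Tyrosinase (Tyr), tyrosinase-related protein 1 (Tyrp1) and dopachrome tautomerase (Dct) are related melanosomal enzymes of melanin synthesis. Pmel forms the fibrils on which melanin is laid down, Mlana is a small melanosome membrane protein, and Slc45a2 and Oca2 are transporters that set conditions inside the melanosome.

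The promoters of the 3 related enzymes are shown because they carry the same short run of letters while their levels in these ganglia differ widely. Windows of 300 bases, from 250 before to 50 after the start of the gene, came from RefSeq on GRCm38.p6, which is not the build of the counts. Windows were available for 5 of the 8 genes (Tyrp1, Dct, Tyr, Oca2 and 3 starts of Mitf). Capitals mark CATGTG on either strand (CACATG where it lies on the opposite strand), the core of the element that MITF is known to bind. The windows run 5′ to 3′ on the strand of the gene, from chr4:80833963-80834262 (plus strand) for Tyrp1, chr14:118052197-118052496 (minus strand) for Dct and chr7:87493463-87493762 (minus strand) for Tyr.
Tyrp1: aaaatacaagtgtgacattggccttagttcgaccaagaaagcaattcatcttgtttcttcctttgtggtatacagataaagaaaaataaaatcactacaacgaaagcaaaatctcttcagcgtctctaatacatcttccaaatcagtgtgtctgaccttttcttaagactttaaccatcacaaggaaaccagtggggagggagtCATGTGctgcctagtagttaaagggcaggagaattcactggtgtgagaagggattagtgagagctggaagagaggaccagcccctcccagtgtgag
Dct: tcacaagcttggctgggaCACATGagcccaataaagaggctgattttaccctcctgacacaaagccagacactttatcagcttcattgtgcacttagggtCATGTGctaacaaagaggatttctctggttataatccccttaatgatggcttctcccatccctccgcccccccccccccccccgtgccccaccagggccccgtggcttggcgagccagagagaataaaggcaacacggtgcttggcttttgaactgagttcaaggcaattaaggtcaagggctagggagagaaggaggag
Tyr: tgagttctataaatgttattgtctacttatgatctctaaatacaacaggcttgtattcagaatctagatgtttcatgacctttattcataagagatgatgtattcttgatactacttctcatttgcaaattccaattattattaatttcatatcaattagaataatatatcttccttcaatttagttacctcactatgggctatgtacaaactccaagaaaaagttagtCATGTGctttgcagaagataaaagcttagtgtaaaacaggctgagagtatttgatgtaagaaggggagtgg

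CATGTG on either strand was found in windows of 4 of the 5 genes, Tyrp1, Dct, Tyr and Oca2, and in none of the 3 Mitf windows. It occurs in 14.15% of all 32851 windows of this length in the table. Relative to the start site, its first base lies at −46 in Tyrp1, at −21 in Tyr and at −150 and −232 in Dct. The longer TCATGTG was found in windows of 3 genes, against 3.77% of all windows. Around it the enzymes share the run GTCATGTGCT, which 61 of the 32851 windows (0.1857%) hold; this run was chosen after the windows were seen. A match describes these letters and says nothing of binding in these ganglia.

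Tyrp1 (ENSMUSG00000005994, GRCm39 chromosome 4, 80752360 to 80769956, plus strand) overlaps no other annotated gene. Its level was 1.0, 3.61 and 1.33 CPM in CCI knockout-labelled libraries 2, 3 and 4, and 4.98, 5.82, 3.50 and 2.0 CPM in sham knockout-labelled libraries 1 to 4. In CCI wild-type libraries 1 to 5 it was 17.3, 13.9, 15.4, 16.0 and 15.9 CPM, and in sham wild-type libraries 1 to 5 it was 15, 14.3, 22.6, 19.7 and 19.1 CPM. The highest knockout-labelled library, at 5.82 CPM, lay below the lowest wild-type library, at 13.9 CPM. These values rest on 61 to 317 reads per knockout-labelled library and 795 to 1445 reads per wild-type library.

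In bulk tissue, fewer cells of a type and less RNA per cell cannot be told apart. Group means of Tyrp1 were 1.98 ± 1.42 CPM (SD, n = 3) after CCI and 4.08 ± 1.68 CPM (n = 4) after sham in knockout-labelled libraries, against 15.7 ± 1.25 CPM (n = 5) after CCI and 18.1 ± 3.47 CPM (n = 5) after sham in wild type. The log2 fold change between knockout-labelled and wild-type libraries was −2.15 ± 0.35 (SE) in sham and −3.00 ± 0.41 after CCI. The corresponding ratios were 0.225 and 0.125. Without sham knockout-labelled libraries 1 and 2 the sham value was −2.72, and without CCI knockout-labelled library 3 the value after CCI was −3.74. These libraries were the highest in Tyrp1 of their groups. With 1 library left out at a time, the value ran from −2.37 to −1.93 in sham and from −3.74 to −2.68 after CCI. In the fit, 1.0% of the 23972 genes were called between genotypes in sham at an adjusted p under 0.05, 0.684% after CCI and 2.55% over both treatments, and in 0.346% every knockout-labelled library lay below every wild-type library. The libraries of the groups did not overlap, in either direction, for 3.21% of tested genes between genotypes in sham and 8.52% after CCI. These shares are given as background only, since Tyrp1 was chosen on this difference. The coefficient of variation of Tyrp1 was 71.6% in CCI and 41.3% in sham knockout-labelled libraries, against 7.96% in CCI and 19.1% in sham wild-type libraries.

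**Figure D1:**
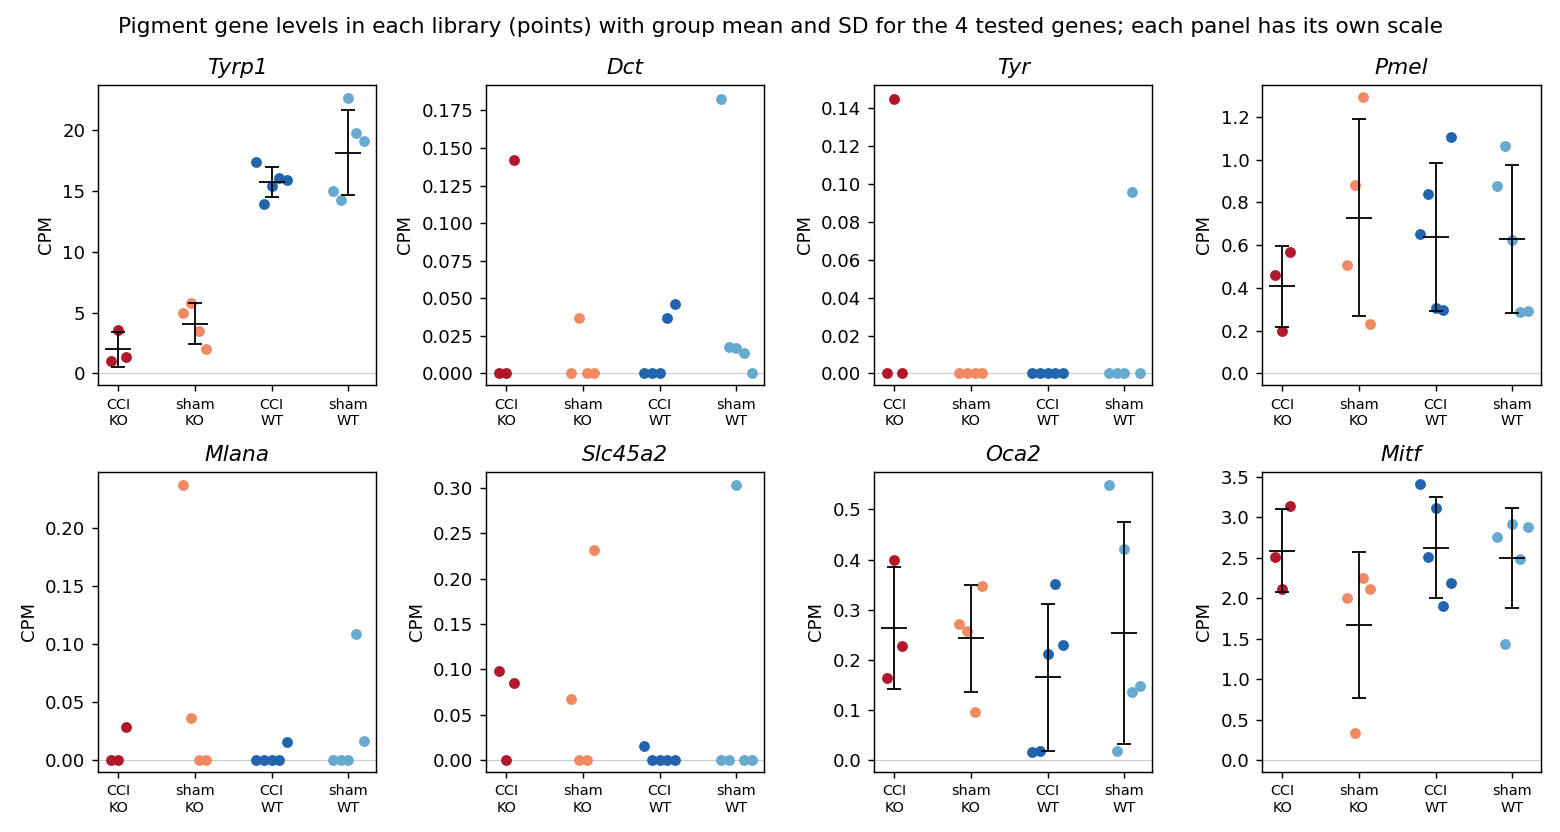
CPM of the 8 pigment genes (vertical axes, each with its own linear scale) in every library (points), grouped as CCI knockout-labelled, sham knockout-labelled, CCI wild type and sham wild type; bars give the group mean and SD for the 4 tested genes. Tyrp1, which was chosen for this difference, shows no overlap between genotype labels (at most 5.82 against at least 13.9 CPM). In 0.346% of tested genes every knockout-labelled library lay below every wild-type library. The other 7 genes overlap. Of these, Dct, Tyr, Mlana and Slc45a2 were at 0 in 9, 15, 11 and 11 of 17 libraries. These libraries carry both labels, so those 4 genes could only overlap.

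In wild-type libraries Tyrp1 stood above the other pigment genes, and in knockout-labelled libraries its level came closer to theirs. Per length (mean CPM per kb of exon), Tyrp1 had 1.12 in knockout-labelled and 5.98 in wild-type libraries. Pmel had 0.258 and 0.277, Mitf 0.204 and 0.252, and Oca2 0.0582 and 0.0485 in knockout-labelled and wild-type libraries. Tyr, Dct, Mlana and Slc45a2 had between 0.00134 and 0.0369 CPM per kb in both labels. By group, Tyrp1 had 0.700 ± 0.501 CPM per kb (SD, n = 3) in CCI and 1.44 ± 0.595 (n = 4) in sham knockout-labelled libraries, and Mitf had 0.255 ± 0.0503 and 0.165 ± 0.0889 in the same groups. After CCI the difference between both genes was smaller than the SD of Tyrp1 in knockout-labelled libraries. Tyrp1 stood at the 54.9th percentile of the tested genes by mean CPM per kb in sham knockout-labelled libraries, against the 33.3rd for Pmel, the 24.1st for Mitf and the 10.3rd for Oca2. It stood at the 78.0th percentile in sham wild-type libraries, against the 31.4th for Pmel, the 29.8th for Mitf and the 10.9th for Oca2. Mean levels per kb of Pmel and Mitf differed by less than their SD between libraries of either genotype label, so their order is not resolved. Exon lengths are those of all annotated exons joined, 2828 bases for Tyrp1 and 10145 bases for Mitf.

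**Figure D2:**
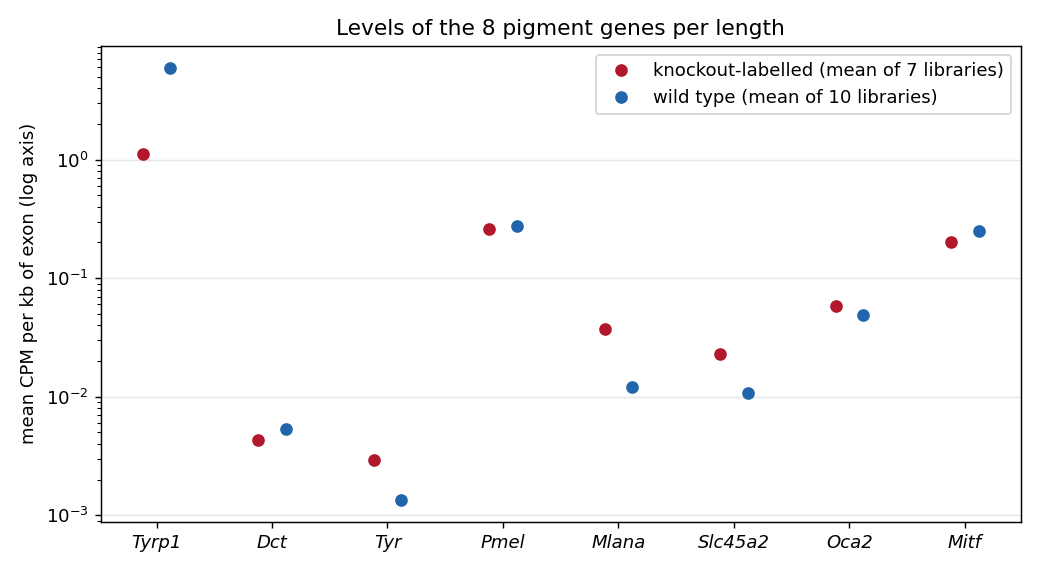
Mean level per kb of exon (CPM per kb, log axis) of each pigment gene, over the 7 knockout-labelled libraries (left point of each pair) and the 10 wild-type libraries (right point). Tyrp1 is above all other genes in both labels, and Tyr and Dct are lowest.

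The defining melanocyte transcripts were at or near 0. Tyr, the rate-limiting enzyme of melanin synthesis (ENSMUSG00000004651, chromosome 7, 87073979 to 87142720), held 8 reads in CCI knockout-labelled library 3 and 7 reads in sham wild-type library 4, and 0 reads in the other 15 libraries. Dct (ENSMUSG00000022129, chromosome 14, 118250202 to 118289656) held 12 reads in all over the 7 knockout-labelled libraries and 18 over the 10 wild-type libraries, at most 10 in any library. Mlana (ENSMUSG00000024806, chromosome 19, 29674900 to 29686034) held 18 reads over the knockout-labelled and 10 over the wild-type libraries, and was at 0 in 11 of 17 libraries. Slc45a2 (ENSMUSG00000022243, chromosome 15, 11000803 to 11029319) held 30 and 19 reads in these sets, and was also at 0 in 11 libraries. The name melanocyte pigment genes is thus kept for what the genes are known to do. Tyrp1, Pmel, Oca2 and Mitf had reads in all 17 libraries, whereas each of these 4 genes was at 0 in at least 9. These 4 genes were too low to enter the main fit, so a difference between genotypes was not tested there.

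Tyrp1 gave 23.6 to 79.1% of all reads of the 8 genes in the knockout-labelled libraries and 77.4 to 86.3% in the wild-type libraries. The other 7 genes together held 84 to 295 reads per library in the knockout-labelled and 140 to 264 reads in the wild-type set, and these ranges overlap. Pmel, Oca2, Mitf and Dct overlap other annotated genes, Pmel among them with Dgka and Cdk2 on the opposite strand. The library kit does not keep the strand. Part of the reads of these genes may thus be assigned in error or left out as ambiguous.

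Pmel, the fibril protein of early melanosomes (ENSMUSG00000025359, chromosome 10, 128540064 to 128556107), was at 0.460, 0.199 and 0.567 CPM in CCI knockout-labelled libraries 2, 3 and 4, and at 0.508, 0.882, 1.30 and 0.232 CPM in sham knockout-labelled libraries 1 to 4. The level was 0.651, 0.837, 0.307, 0.296 and 1.10 CPM in CCI wild-type libraries 1 to 5, and 0.878, 1.06, 0.622, 0.287 and 0.294 CPM in sham wild-type libraries 1 to 5. All groups overlapped. The difference between genotype labels was 0.21 ± 0.54 (log2, SE) in sham (edgeR adjusted p = 0.948) and −0.64 ± 0.60 after CCI (edgeR adjusted p = 0.890). Over both treatments it was −0.21, with a 95% interval from −1.08 to 0.66.

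Mitf, the regulator of the programme (ENSMUSG00000035158, chromosome 6, 97783950 to 97998323), was at 2.51, 2.12 and 3.13 CPM in CCI knockout-labelled libraries 2, 3 and 4, and at 2.0, 0.331, 2.25 and 2.12 CPM in sham knockout-labelled libraries 1 to 4. The level was 3.41, 2.51, 3.11, 1.91 and 2.19 CPM in CCI wild-type libraries 1 to 5, and 2.76, 1.43, 2.91, 2.48 and 2.88 CPM in sham wild-type libraries 1 to 5. Sham knockout-labelled library 2 was low, and the groups overlapped. The genotype difference was −0.57 ± 0.36 in sham (edgeR adjusted p = 0.608), −0.23 without library 2 (edgeR adjusted p = 0.882), and −0.02 ± 0.38 after CCI (edgeR adjusted p = 0.996). Over both treatments it was −0.30, with a 95% interval from −0.86 to 0.27.

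Oca2, which regulates the pH of melanosomes (ENSMUSG00000030450, chromosome 7, 55889191 to 56186280), ranged from 0.164 to 0.399 CPM in the 3 CCI knockout-labelled libraries and from 0.0952 to 0.348 CPM in the 4 sham knockout-labelled libraries. It ranged from 0.0155 to 0.352 CPM in the 5 CCI wild-type libraries and from 0.0174 to 0.549 CPM in the 5 sham wild-type libraries, again with overlap. Over both treatments the genotype difference was 0.30, with a 95% interval from −1.10 to 1.71 (edgeR adjusted p = 0.921). At 1 to 30 reads per library, differences smaller than these intervals were not detectable.

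Of the 3 tested genes other than Tyrp1, 0 were called between genotype labels in sham (background 1.0% of all tested genes), 0 after CCI (0.684%) and 0 over both treatments (2.55%). At an unadjusted p under 0.05 the count was also 0 in each. DESeq2 and limma-voom called 0 of them too. Whether Tyrp1 differs from each of them was not tested.

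**Figure D3:**
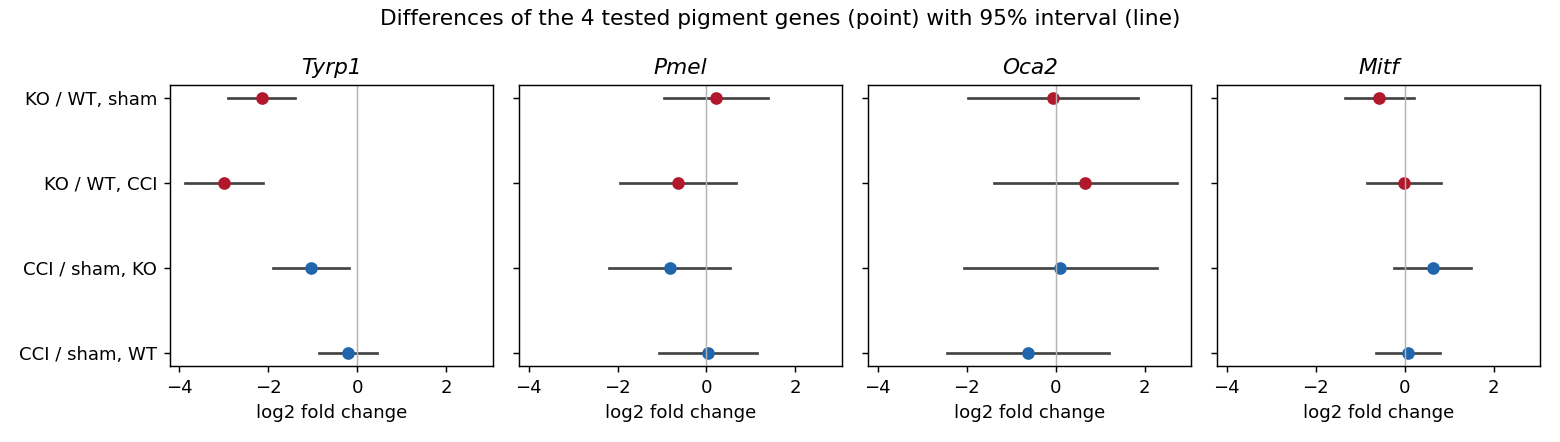
Log2 fold changes (horizontal axis, points) with 95% intervals (lines) of the 4 tested pigment genes, for knockout-labelled over wild type in sham and after CCI (red) and for CCI over sham in each genotype label (blue). Tyrp1 was chosen for its difference between genotypes, so its intervals there are a description and no test. The intervals of Pmel, Oca2 and Mitf between genotypes include 0.

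The injury comparisons were not used to choose the genes, so all 4 genes that passed the filter were tested there. In wild type, where 3.06% of tested genes were called and 4.84% had groups that did not overlap, 0 of 4 were called and all 4 overlapped. Tyrp1 changed by −0.21 ± 0.30 on the log2 scale (15.7 ± 1.25 CPM after CCI and 18.1 ± 3.47 CPM in sham; edgeR adjusted p = 0.878, 95% interval −0.86 to 0.44). The changes of Mitf (0.08 ± 0.33), Pmel (0.03 ± 0.51) and Oca2 (−0.62 ± 0.84) had edgeR adjusted p-values of 0.970, 0.993 and 0.866.

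In knockout-labelled libraries injury called 0.0834% of the tested genes, and the groups of 7.56% did not overlap. Of these 4 genes 0 were called. Tyrp1 changed by −1.05 ± 0.40 (1.98 ± 1.42 CPM after CCI and 4.08 ± 1.68 CPM in sham; edgeR adjusted p = 0.444, unadjusted p = 0.0187), and the groups overlapped. The value depended on single libraries. Without CCI knockout-labelled library 3, the highest of its group, it was −1.80 ± 0.33 and was called (edgeR adjusted p = 0.0323), and without sham knockout-labelled libraries 1 and 2, the libraries high in Atf3, it was −0.48 ± 0.43 (edgeR adjusted p = 0.790). Mitf changed by 0.63 ± 0.40 (edgeR adjusted p = 0.723), Pmel by −0.82 ± 0.63 (0.802) and Oca2 by 0.11 ± 1.0 (0.994), none past the threshold. The injury effect on Tyrp1 differed between genotype labels by −0.84 ± 0.49 (edgeR adjusted p = 0.897). In that interaction edgeR called 0 of 23972 genes, with 1408 at an unadjusted p under 0.05, and DESeq2 called 28.

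Other genes of the melanosome and of the melanocyte lineage were read from lists chosen for their function. Background shares of all tested genes called apply to these lists and the cell marker lists below. They were 1.0% between genotypes in sham, 0.684% after CCI and 2.55% over both treatments. For injury they were 3.06% in wild type and 0.0834% in knockout-labelled libraries. Of 30 other melanosome genes 29 were tested, and Tspan10 was at 0 in all libraries. Between genotypes in sham 2 were higher and 0 lower, with a median log2 difference of 0.03 against 0.00 over all genes. They were Ctsd, a lysosomal protease (0.20 ± 0.05, edgeR adjusted p = 0.0459), and Dtnbp1, a subunit of the BLOC complex of organelle biogenesis (0.26 ± 0.07, edgeR adjusted p = 0.04997). After CCI 0 of 29 passed. Over both treatments Ctsd was higher (0.19 ± 0.04) and the protease gene Bace2 lower (−0.33 ± 0.08, edgeR adjusted p = 0.0281). Injury in wild type raised Dtnbp1 (0.56 ± 0.06, edgeR adjusted p = 1.47e-05), the Hermansky-Pudlak gene Hps1 (0.56 ± 0.13), Rab32 (0.59 ± 0.15) and Sytl2 (0.30 ± 0.08), and lowered the organelle motor Myo5a (−0.23 ± 0.06), which was named after its values were seen; in knockout-labelled libraries 0 of 29 passed. Levels differed among genes of this list that are typical of pigment cells. Slc24a5, named here after its values were seen, had reads in every library, at 0.457 to 2.0 CPM, and 2 others were scarcer. Gpr143, a melanosomal receptor, reached at most 0.284 CPM in any library and Trpm1 at most 0.499 CPM.

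Of 20 lineage regulators and signals 17 were tested. The endothelin receptor Ednrb, which melanoblasts need and which glia also express, was lower in sham knockout-labelled libraries (104.4 ± 10.9 CPM, n = 4) than in sham wild-type libraries (164.6 ± 24.8 CPM, n = 5), by a log2 fold change of −0.66 ± 0.09 (edgeR adjusted p = 0.000749). It was the single called gene of the list there, with a list median of −0.16. After CCI the neural crest transcription factor Sox10, which glia and melanocytes share, was the single called gene, at 79.3 ± 8.12 CPM (n = 3) in knockout-labelled and 105.4 ± 8.56 CPM (n = 5) in wild-type libraries (−0.41 ± 0.08, edgeR adjusted p = 0.00713; list median −0.31). Over both treatments 3 of 17 were lower, Ednrb (−0.49 ± 0.07, edgeR adjusted p = 0.000192), Sox10 (−0.28 ± 0.05, 0.00168) and the neural crest factor Snai2 (−0.73 ± 0.19, 0.0424), with a list median of −0.23. Injury in wild type raised 5 of 17, Sox10 (0.30 ± 0.06), the neuregulin receptor Erbb3 (0.48 ± 0.11), Met (1.06 ± 0.27), Ednrb (0.32 ± 0.08) and Snai2 (0.88 ± 0.24, named here after its values were seen). In knockout-labelled libraries it raised Ednrb (0.66 ± 0.10, edgeR adjusted p = 0.0160). Mc1r, the melanocortin receptor of melanocytes, did not pass the filter, and the melanoblast factor Pax3 averaged at most 0.176 CPM in any group.

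Markers of other cells were set beside Tyrp1. Of 14 myelinating Schwann cell markers, 11 were lower in sham knockout-labelled libraries, 9 after CCI and 13 over both treatments, with 0 higher. Their median log2 difference was −0.77 in sham and −0.63 after CCI. Among them were Gjb1, a gap junction protein (−0.98 ± 0.13 in sham, edgeR adjusted p = 0.000308), the lipid enzyme Fa2h (−1.35 ± 0.15, 0.000542), the myelin protein Pmp22 (−1.03 ± 0.12, 0.000542) and Mal (−0.74 ± 0.10, 0.000749). Their summed level ran from 7040 to 8659 CPM in CCI and 5511 to 7420 CPM in sham knockout-labelled libraries, against 12421 to 16791 CPM in CCI and 11245 to 15960 CPM in sham wild-type libraries, and no marker was at 0 throughout a group. The part of these cells in the Tyrp1 difference was not tested. Within groups, over 17 libraries, Tyrp1 had a Pearson correlation of −0.17 with Pmp22 after subtraction of group means, given as a description.

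Of 14 tested leptomeningeal markers 0 were called between genotypes in sham, after CCI or over both treatments, by edgeR. Their summed level ranged from 54.3 to 151 CPM in CCI and 61.1 to 137.2 CPM in sham knockout-labelled libraries, and from 50.5 to 226.2 CPM in CCI and 62.3 to 159.3 CPM in sham wild-type libraries, and so overlapped. Their median log2 difference was −0.26 in sham and −0.52 after CCI. The difference was negative for 11 of 14 in sham, 13 of 14 after CCI and 12 of 14 over both treatments. Of 6 tested skin keratinocyte markers 0 were called, and Krt5, the basal keratinocyte keratin, was at 0 in all libraries. Fibroblast markers had 1 of 10 genes lower in each treatment, the collagen gene Col3a1 (−1.94 ± 0.27 in sham, edgeR adjusted p = 0.00371; −1.80 ± 0.29 after CCI, edgeR adjusted p = 0.0134). Over both treatments 2 were lower, Col3a1 (−1.87 ± 0.20) and the collagen gene Col1a2 (−1.08 ± 0.24, edgeR adjusted p = 0.0270). The fibroblast list had a negative log2 difference for 9 of 10 genes in sham (median −0.31) and for 10 of 10 after CCI (median −0.72). Its summed level ranged from 1372 to 1416 CPM in CCI and 1034 to 1597 CPM in sham knockout-labelled libraries. In wild type it ranged from 1526 to 3061 CPM in CCI and 1135 to 1997 CPM in sham libraries. The sums overlapped in sham and did not overlap after CCI, where 8.52% of single tested genes did not overlap either. Satellite glia markers had 2 of 10 lower in sham (Ednrb and Apoe) and 1 higher after CCI (Ptprz1). Over both treatments 3 were lower (Ednrb, Apoe and Plekhb1) and 1 higher (Ptprz1). Of 12 macrophage and 10 sensory neuron markers 0 were called between genotypes by edgeR. In sham, 11 of 12 macrophage markers were higher in knockout-labelled libraries (median log2 difference 0.53). After CCI 10 of 12 were lower (median −0.06), and over both treatments 10 of 12 were higher. Sensory neuron markers were higher for 8 of 10 in each treatment (medians 0.05 and 0.08) and for 10 of 10 over both. The parts of these cells in the Tyrp1 difference were not tested.

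**Figure D4:**
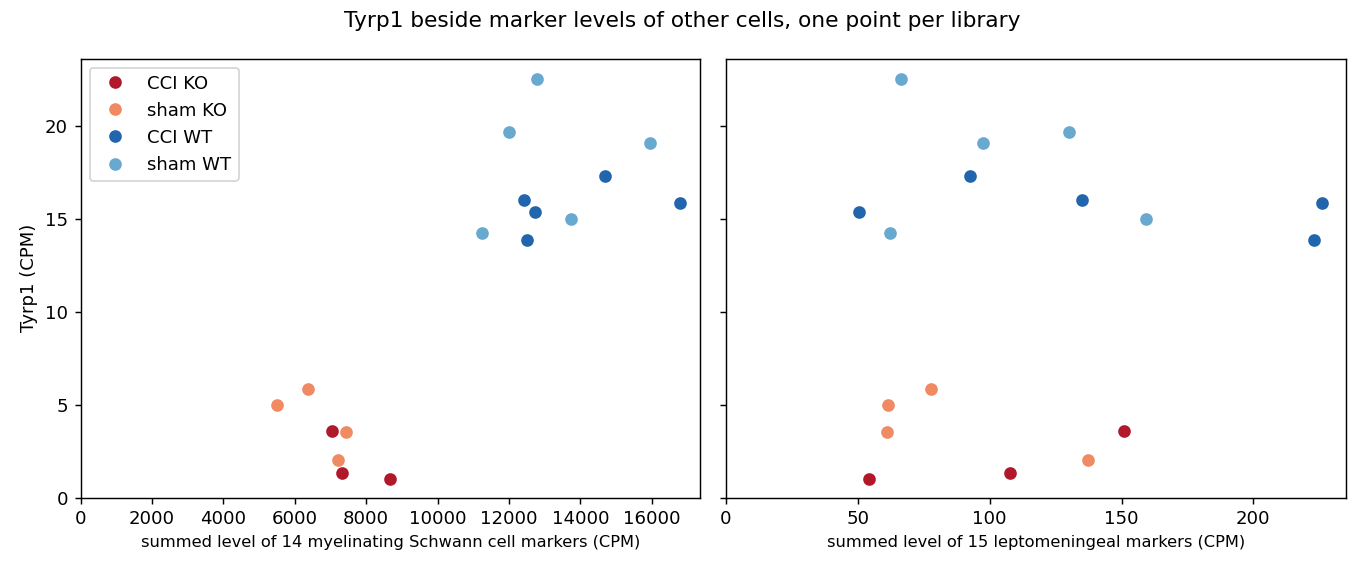
Tyrp1 level (vertical axis, CPM) in each library (points, by group) against the summed CPM of 14 myelinating Schwann cell markers (left) and of 15 leptomeningeal markers (right). Both genotype labels separate on the Schwann cell axis (at most 8659 against at least 11245 CPM) and overlap on the leptomeningeal axis. In 0.346% of single tested genes every knockout-labelled library lay below every wild-type library.

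The protein-coding neighbours of Tyrp1 within 500 kb were chosen for their position. They differed less between genotype labels than Tyrp1, which was itself chosen for its difference. Lurap1l (chromosome 4, 80828883 to 80993687) was at 21.8 ± 1.06 CPM in CCI and 23.8 ± 4.80 CPM in sham knockout-labelled libraries, against 23.1 ± 2.01 CPM in CCI and 26.1 ± 2.61 CPM in sham wild-type libraries, a log2 difference over both treatments of −0.11 ± 0.08 (edgeR adjusted p = 0.662). Mpdz, a scaffold protein gene (chromosome 4, 81196710 to 81371541), was at 55.5 ± 3.96 CPM in CCI and 55.9 ± 7.08 CPM in sham knockout-labelled libraries, against 65.5 ± 1.89 CPM in CCI and 64.7 ± 5.47 CPM in sham wild-type libraries, and differed by −0.22 ± 0.06 (edgeR adjusted p = 0.0293).

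Variation of Tyrp1 between libraries of the same group was set beside that of the 3 other pigment genes that passed the filter. After subtraction of group means from log2 CPM, its Pearson correlation over the 17 libraries was −0.11 with Pmel, 0.20 with Oca2 and −0.35 with Mitf. Among 13542 protein-coding genes with a mean of at least 1 CPM, the most alike by this measure were Dqx1 (0.83), Ccdc134 (0.82), Ube2a (0.82), Pard3b (0.81) and Tusc3 (0.80). Without the subtraction, which lets the genotype difference in, they were Enoph1 (0.87), Col3a1 (0.85), Osgep (0.84), Spon2 (0.84) and Gamt (0.84), all with lower means in both knockout-labelled groups than in both wild-type groups. With a rank correlation 1 of the 5 genes remained among the 5 most alike in each ranking, so these names are a description of 17 libraries only.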

How the data were processed

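The authors deposited 1 table of raw read counts by Ensembl gene for each of 17 libraries. Per the submitters' processing notes, the authors used bcl2fastq 2.20.0.422 and STAR 2.7.11a on GRCm39; per the labels' protocols, RNA came from a PicoPure kit and libraries from SMART-Seq v4 (not stranded). No source names the counting settings. Each table's 5 closing summary lines were excluded (no feature, 4.03 to 4.55%; ambiguous, 7.63 to 8.17%). GENCODE M39 named 78168 of 78298 identifiers.

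Genes were filtered with filterByExpr (minimum count 10, total 15), scaled by TMM and tested with edgeR 4.0.16's quasi-likelihood test (R 4.3.3; group means over 17 libraries, 13 residual degrees of freedom, robust; Benjamini-Hochberg over 23972 genes, threshold 0.05). Intervals use 13 degrees of freedom and are not adjusted. For correlations, log2 CPM had 2 as prior count. The fit was tested on simulated data. Members, lists and tests were chosen with earlier results of these data known. Named genes were the members and, per list and comparison, up to 4 called genes of smallest p. Replicates differed beyond counting noise (chi-square per gene at least 13.7). Alternatives were other scaling, filters, DESeq2 1.42.0, limma-voom 3.58.1, a replicate block, left-out libraries and fits of the compared groups only.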

Additional observations from a re-analysis of the deposited data

Results flagged for a closer look

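Of 24 sets of 4 or 5 libraries examined (each pigment gene in each group of that size), 10 had a library whose gap to its nearest neighbour exceeded Dixon's 95% critical value, where chance flags about 1 in 20. Mitf was at 0.331 CPM (18 reads) in sham knockout-labelled library 2, and was at 1.43 CPM (82 reads) in sham wild-type library 2. The others lie in genes at 0 in most libraries, where a few reads suffice. Dct reached 0.0367 CPM (2 reads) in sham knockout-labelled library 2 and 0.183 CPM (10 reads) in sham wild-type library 1. Tyr reached 0.0955 CPM (7 reads) in sham wild-type library 4. Mlana reached 0.237 CPM (14 reads) in sham knockout-labelled library 1, 0.0153 CPM (1 read) in CCI wild-type library 5 and 0.109 CPM (8 reads) in sham wild-type library 4. Slc45a2 reached 0.0155 CPM (1 read) in CCI wild-type library 1 and 0.303 CPM (18 reads) in sham wild-type library 3.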

How the results depend on the processing

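Under the alternatives the log2 difference of Tyrp1 between genotype labels ran from −2.72 to −1.93 in sham and from −3.74 to −2.68 after CCI. Over both treatments it ran from −2.94 to −2.41. Tyrp1 was chosen on this difference and its libraries did not overlap between labels. Its sign could therefore hardly turn, and the ranges describe size only. The count of called pigment genes, Tyrp1 left out between genotypes, was 0 in all comparisons and alternatives except injury in knockout-labelled libraries, where leaving out 1 library gave 0 to 1. With the replicate block, which the labels do not tie to shared animals or days (deviations of same-numbered libraries correlated by −0.013 to 0.118, 1 of 22 pairs above 0.1), the count was 0 in every comparison. Signs turned, without a call, for Oca2 in sham genotypes (0.45 with limma-voom, 0.37 with the replicate block), Oca2 in knockout-labelled injury (−0.0029 with limma-voom) and Mitf between genotypes after CCI (0.038 with limma-voom, 0.12 with the replicate block). With 1 library left out, signs also turned for Mitf after CCI (−0.18 to 0.11), Mitf in wild-type injury (−0.067 to 0.17), Oca2 in sham (−0.35 to 0.44), Oca2 in knockout-labelled injury (−0.31 to 0.36), Pmel in sham (−0.21 to 0.51) and Pmel in wild-type injury (−0.26 to 0.31); the cause was not tested. Over all genes the calls behind the background shares ran from 37 to 702 (main 240) for genotype in sham, 18 to 452 (164) after CCI, 396 to 1112 (612) over both, 423 to 1301 (733) for injury in wild type, 0 to 224 (20) in knockout-labelled libraries and 0 to 77 (0) for the interaction. Pmel and Oca2 gave no value under the stricter filter, and 4 of the 8 genes were too low to test.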
